A study of Mus musculus with 2 samples.

Results

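To describe salivary gland cells with natural killer (NK) receptor transcripts, cells were selected by transcript from 2 single-cell RNA sequencing (scRNAseq) libraries. A cell was kept when it held at least 3 unique molecular identifiers (UMIs, counts of captured RNA molecules) of the NK receptor genes *Ncr1*, *Klrd1* and *Klrb1c* together and at least 2 of *Xcl1* and *Cd7*. It was also required to hold at most 2 UMIs of *Gzma* and *Eomes*, none of *Cd4* and *Cd8b1*, none of *Cd79a* and *Ms4a1*, and at most 1 of *C1qa* and *Csf1r*. The rule took 544 of the 10591 barcodes that passed the quality limits. The NOD/ShiLtJ library gave 308 of 4917 barcodes (6.26%, 95% exact binomial interval 5.6 to 6.98) and the CD1 library 236 of 5674 (4.16%, 3.65 to 4.71). These cells are called *Xcl1* cells here. Their working name was ILC1-like, after type 1 innate lymphoid cells, with *Ncr1*, *Xcl1*, *Klra5*, *Cd7* and *Cd226* as markers.

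Each library was a pool of submandibular glands with the adjacent sublingual glands from untreated female mice at 20 weeks of age. NOD/ShiLtJ (NOD) is an inbred strain that develops diabetes and a Sjögren-like disease with lymphocytic infiltrates in the salivary glands, and CD1 is an outbred strain that served as the control. The sample labels give 3 mice for each pool and the methods give 4, and the labels give both libraries the same batch. Epithelial cells, red blood cells and dead cells had been depleted before loading, so shares of cells are shares of what was left. With 1 library per strain there were no replicates, no test was possible, and strain, library and pool cannot be told apart. All intervals cover counting error only.

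NK cells and type 1 innate lymphoid cells are lymphocytes that kill or signal without an antigen receptor rearranged for the purpose. Conventional NK cells circulate, depend on the transcription factor *Eomes* and carry granzyme A, encoded by *Gzma*. Type 1 innate lymphoid cells stay in tissues and are usually told from NK cells by residency molecules such as CD49a, encoded by *Itga1*, and CXCR6. Salivary glands are known for a resident population that shares features of both. *Ncr1* encodes the activating receptor NKp46, and *Xcl1* encodes lymphotactin, a chemokine that attracts cross-presenting dendritic cells. T cells are told from both by the CD3 chains, encoded by *Cd3d*, *Cd3e* and *Cd3g*, which carry the T cell receptor to the surface.

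The depth was alike in both strains. The NOD library held 52790319 UMIs in all and the CD1 library 56483149. The *Xcl1* cells had a median of 8990 UMIs in NOD (lowest 1506, highest 48138) and 10154 in CD1 (lowest 3487, highest 40065), against medians of 6757 and 7534.5 over all barcodes that passed. Their summed counts came to 3172868 UMIs in NOD and 2750270 in CD1. Among barcodes with at least 1 UMI of *Ptprc*, the pan-leukocyte gene, *Xcl1* cells made up 8.11% in NOD (7.26 to 9.02) and 9.01% in CD1 (7.94 to 10.2). The order of the strains turned with the denominator, and the latter 2 intervals overlapped. Of the barcodes with at least 500 UMIs, 24 sequences occurred in both libraries and 6 among those that passed, and none belonged to an *Xcl1* cell in both.

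The genes of the rule are given as a description, in CPM, the UMIs of a gene summed over the *Xcl1* cells of a library and scaled to the same total in both. *Ncr1* was at 968 CPM in NOD and 1368 in CD1, and *Klrd1*, which encodes the CD94 chain of the NKG2 receptors, at 540 and 979. *Klrb1c*, which encodes NK1.1, was at 68.7 CPM in NOD and 499.95 in CD1, with UMIs in 40.6% and 92.4% of the *Xcl1* cells. *Xcl1* was at 1929 CPM in NOD and 1990.0 in CD1, and *Cd7* at 349 and 279.6. Of the label markers outside the rule, *Cd226*, an activating receptor for nectins, was at 1532 CPM in NOD and 1492 in CD1. *Klra5*, of the Ly49 family, was at 522 and 135 CPM, with UMIs in 42.9% and 13.1% of the cells. Endothelial cells, which should lack it, held a UMI of *Klra5* in 1.13% of NOD and 0 of CD1 cells.

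Few *Xcl1* cells lay at the limits on the NK receptors and on *Xcl1* and *Cd7*. More lay at those on *Gzma* and *Eomes* and on *C1qa* and *Csf1r*. In NOD 226 cells had no UMI of either gene, 54 had 1 and 28 had 2, while 18 cells with 3 UMIs lay just outside. In CD1 the numbers were 183, 34 and 19, with 17 just outside. At the NK receptor limit, 13 NOD and 2 CD1 cells had the minimum of 3 UMIs and 11 and 1 just missed it. At the limit on *Xcl1* and *Cd7*, 6 NOD and 3 CD1 cells had 2 UMIs, and 9 and 3 had 1. At the limit on *C1qa* and *Csf1r*, 18 NOD and 24 CD1 cells had 1 UMI, and 3 and 3 just missed it with 2. A further 83 NOD and 8 CD1 cells met every other condition but held *Cd4* or *Cd8b1*, and 21 and 7 but held *Cd79a* or *Ms4a1*.

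The label was then checked against the CD3 genes, which encode chains that NK cells and innate lymphoid cells lack at the surface and which the rule did not use. In NOD 246 of 308 *Xcl1* cells (79.9%, 75 to 84.2) held at least 2 UMIs of *Cd3d*, *Cd3e* and *Cd3g* together, and in CD1 72 of 236 (30.5%, 24.7 to 36.8). NK cells were picked by the same receptor genes but with at least 3 UMIs of *Gzma* and *Eomes* (259 NOD and 107 CD1 cells). They had no minimum of *Xcl1* and *Cd7*. They met the same CD3 limit in 56.8% of NOD (50.5 to 62.9) and 31.8% of CD1 (23.1 to 41.5). CD3 was not used to pick them, and whether some were T cells was not tested. No UMI of the 3 genes was found in 45 NOD and 145 CD1 *Xcl1* cells. The median of the cells at or above the limit was 20 CD3 UMIs in NOD and 8.5 in CD1, against 6 and 4.5 in such NK cells and 15 and 18.5 in T cells chosen by CD3 with *Cd4* or *Cd8b1*. There were 1132 such T cells in NOD but only 48 in CD1, so all CD1 T cell values rest on few cells. *Cd3g* was at 908 CPM in NOD and 288 in CD1, *Cd3d* at 388 and 64.7, and *Cd3e* at 352 and 54.5. *Cd3g* had a UMI in 82.1% of NOD and 37.7% of CD1 *Xcl1* cells, or in 48.4% and 15.3% with every cell thinned to 1000 UMIs. Among the NK cells it had a UMI in 64.1% and 37.4%. *Cd3d* had a UMI in 69.8% of NOD and 12.3% of CD1 *Xcl1* cells, against 42.9% and 17.8% of the NK cells, and *Cd3e* in 65.6% and 10.2%, against 15.8% and 1.87%. The share of cells with CD3 was thus above that of the NK cells in NOD, with intervals apart, and within the interval of the NK cells in CD1. CD3 at the level of T cells goes against a label of innate cells for many NOD cells. Main results are therefore also given for the 62 NOD and 164 CD1 cells with 0 or 1 CD3 UMI (CD3-low). These were 1.26% of the NOD and 2.89% of the CD1 barcodes that passed, so the order of the strains turned.

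**Figure D1:**
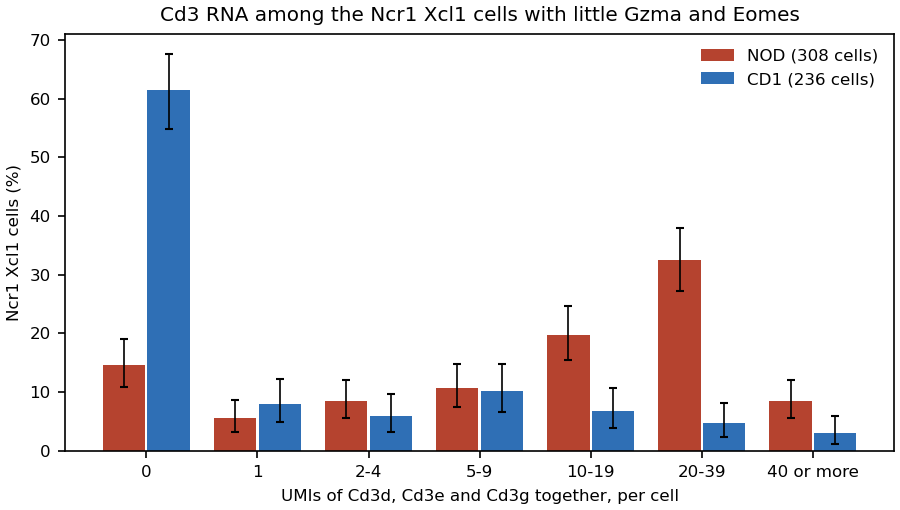
Share of *Xcl1* cells (%, vertical axis) by the summed UMIs of *Cd3d*, *Cd3e* and *Cd3g* per cell (horizontal axis) in NOD (308 cells) and CD1 (236 cells), with 95% exact binomial intervals as bars. In NOD the fullest bin is 20 to 39 UMIs with 100 cells, and in CD1 it is 0 UMIs with 145 cells.

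The receptor chain genes of the CD3-bearing cells were then counted. *Trdc* encodes the constant region of the T cell receptor delta chain and *Trac* that of the alpha chain. Among the CD3-bearing NOD cells 143 of 246 (58.1%, 51.7 to 64.4) had *Trdc* without *Trac*, 54 had *Trac* without *Trdc*, 23 had both and 26 had neither. In CD1 the numbers were 23, 17, 4 and 28 of 72. *Trdc* by itself did not separate these cells from NK cells. The *Eomes* *Gzma* NK cells, as the NK cells above are called, held *Trdc* without *Trac* in 70.3% and 72.0%. The *Eomes* *Gzma* NK cells had less *Cd3g* and *Cd3e* than the *Xcl1* cells: *Cd3g* was at 301 CPM in NOD and 123 in CD1 and *Cd3e* at 75.1 and 8.28. Endothelial cells, which should lack *Trdc*, held a UMI of it in 1.13% of 711 NOD and 0.0862% of 2319 CD1 cells, at median depths of 5457 and 6774 UMIs.

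Gamma chain genes differed in how far they followed CD3. *Trgv2*, a variable segment of the gamma chain, was at 127 CPM in the CD3-bearing and 1.73 in the CD3-low NOD cells, and at 30.7 and 0.564 in the CD1 cells. *Trgc2*, a gamma constant region, was at 45.9 CPM in the CD3-bearing NOD cells with no UMI in the CD3-low ones, and at 17.4 and 1.69 in CD1. *Trgc4*, another gamma constant region, was at 94.4 CPM in the CD3-bearing and 60.5 in the CD3-low NOD cells, and at 36.9 and 43.4 in CD1. *Trdc* itself was at 525 and 77.8 CPM in NOD and at 157 and 63.1 in CD1. *Trac* was at 92.9 CPM in the CD3-bearing and 17.3 in the CD3-low NOD cells, and at 86.0 and 2.25 in the CD1 cells. *Trbc1* and *Trbc2*, the beta constant regions, had UMIs in 48.0% and 65.9% of the CD3-bearing NOD cells, *Trdc* in 67.5%, and *Trbc1* and *Trbc2* in 66.7% and 73.6% of the CD3-bearing CD1 cells. *Trbc2* was at 134.5 CPM in the CD3-bearing and 44.9 in the CD3-low NOD cells, and at 199.7 and 125 in the CD1 cells. *Trbc1* was at 98.7 CPM in the CD3-bearing and 46.7 in the CD3-low NOD cells, but at 102 and 118 in the CD1 cells. In the *Eomes* *Gzma* NK cells *Trbc2* had UMIs in 32.8% of NOD and 45.8% of CD1 cells, and *Trbc1* in 52.9% and 62.6%.

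**Figure D2:**
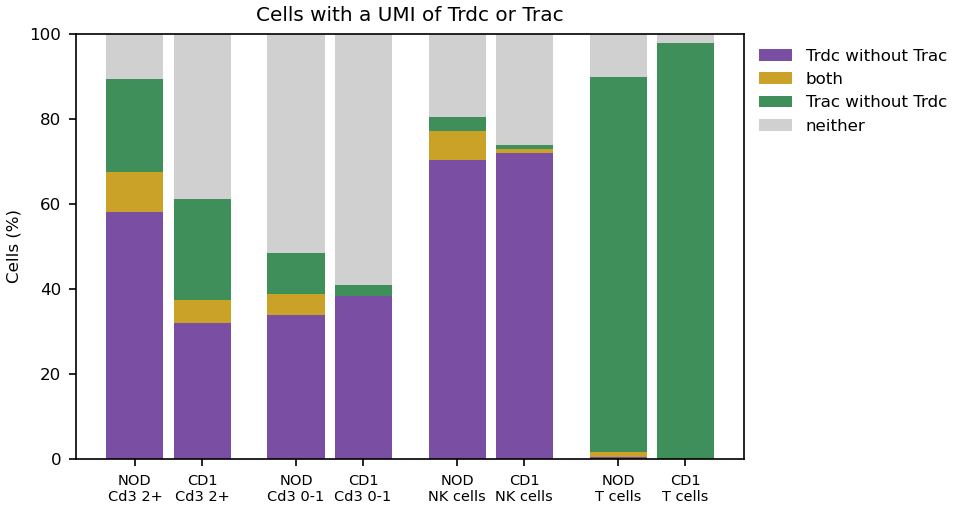
Share of cells (%, vertical axis) with a UMI of *Trdc* without *Trac*, of both, of *Trac* without *Trdc* or of neither, in CD3-bearing *Xcl1* cells (Cd3 2+), CD3-low *Xcl1* cells (Cd3 0-1), *Eomes* *Gzma* NK cells and T cells of each library. *Trdc* without *Trac* was the largest class of the CD3-bearing NOD *Xcl1* cells (58.1%) and of the NK cells (70.3% in NOD and 72.0% in CD1), and *Trac* without *Trdc* was that of the T cells.

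The residency and ILC1 list summed to 8228 CPM in the CD3-bearing and 8116 in the CD3-low NOD cells, and to 9231 and 9135 in the CD1 cells. The cytotoxic granule list summed to 3220.0 and 2856 CPM in NOD and to 3560.5 and 3249 in CD1. Single genes, chosen after their values were seen, lay further apart. *Itgae*, which encodes the CD103 integrin chain of epithelium-resident lymphocytes, was at 199.7 CPM in CD3-bearing and 12.1 in CD3-low NOD cells, and at 135 and 44.5 in CD1. *Gzmc*, a granzyme, was at 82.5 against 5.19 CPM in NOD and 164 against 87.4 in CD1. *Gzmb*, the granzyme best known for triggering apoptosis, was at 75.2 against 1.73 CPM in NOD and 110 against 24.8 in CD1. *Zbtb16*, which encodes PLZF, the factor of innate-like T cells and innate lymphoid precursors, was at 87.5 against 17.3 CPM in NOD and 37.9 against 21.4 in CD1. *Klrb1b*, an inhibitory receptor gene, ran the other way, at 119 against 574 CPM in NOD and 245 against 542 in CD1. *Rora*, a transcription factor of innate lymphoid cells, was at 113 against 361 CPM in NOD and 106 against 192 in CD1. *St6galnac3*, a sialyltransferase gene, was at 649 against 1445 CPM in NOD and 1110.4 against 1429 in CD1. *Ccdc80* was at 63.2 against 187 CPM in NOD and 89.1 against 97.0 in CD1.

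To ask whether the cells stay together in genes the rule did not use, each library was clustered without the 13 rule genes. In NOD 271 of 308 *Xcl1* cells (88.0%, 83.8 to 91.4) fell into 1 of 25 clusters, which held 427 cells and was led by *Klra5*, *Xcl1*, *Ncr1*, *Trdc* and *Cd7*. In CD1 189 of 236 (80.1%, 74.4 to 85) fell into 1 of 23 clusters, which held 245 cells and was led by *Cd226*, *Ncr1*, *Dscam*, *Gm2682* and *Clnk*. Leading genes were ranked over all genes, and *Xcl1*, *Ncr1* and *Cd7* among them are rule genes by which the cells were picked. CD3 divided the NOD cells little: 218 of 246 CD3-bearing and 53 of 62 CD3-low cells shared the main cluster. In CD1 it held 141 of 164 CD3-low but 48 of 72 CD3-bearing cells, and 18 of the latter lay in a T cell cluster led by *Themis* and *Cd3g*. Another 20 NOD and 24 CD1 cells lay in the clusters of the *Eomes* *Gzma* NK cells, led by *Klra13-ps* and *Klra4*. Of the other NOD cells, 8 lay in a cluster led by *Lyz2*, a myeloid gene, 3 among endothelial cells, 3 in a cluster led by *Scart1* and *Il23r*, and 1 each in clusters led by *Dcn*, a fibroblast gene, by *Grm8* and by *Klk1b26*. Of the other CD1 cells, 3 lay in a cluster led by *Stab2* and 1 each in clusters led by *H1f5* and by *Acta2*, a smooth muscle gene. The main cluster also held 59 of the 259 NOD and 21 of the 107 CD1 *Eomes* *Gzma* NK cells. These clusters come from the same cells as the rule and are a description.

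The *Xcl1* cells were next set beside the *Eomes* *Gzma* NK cells of the same library, so that library preparation was shared. The 2 kinds were chosen apart by *Gzma* and *Eomes*, and genes that vary with these 2 differ in part through the choice. Over 10164 genes with at least 20 UMIs in each library, 128 (1.26%) were at a log2 ratio of at least 1 in both libraries and 99 (0.974%) at -1 or lower in both. Residency genes were mostly higher and circulating NK genes mostly lower in the *Xcl1* cells. Of 27 residency and ILC1 genes, 5 were past the fold upward in both libraries and none downward, and for 19 both intervals lay above 0. The median log2 ratio was 0.95 in NOD and 0.53 in CD1, against 0.02 and -0.03 over all genes. The list summed to 8207 CPM in NOD and 9169 in CD1 *Xcl1* cells and to 4377 and 6202 in NK cells. In T cells it summed to 8045 and 7978 CPM, so a high sum was not particular to the *Xcl1* cells. Of 24 genes of circulating NK cells, 14 were past the fold downward and 2 (*Cx3cr1* and *Ly6c2*) upward, with medians of -1.37 and -1.40. In the NOD *Xcl1* cells 14 of 17 *Ly6c2* UMIs lay in the cluster led by *Lyz2*.

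*Cxcr6*, the receptor of CXCL16 and a residency gene, was at 675 CPM in *Xcl1* cells and 191 in NK cells of NOD, and at 493 and 167 in CD1. Its log2 ratio was 1.82 (1.69 to 1.95) in NOD and 1.56 (1.36 to 1.77) in CD1. T cells held *Cxcr6* at 355 CPM in NOD and 557 in CD1. *Cd200r1*, an inhibitory receptor, was at 217 against 55.9 CPM in NOD and 224 against 55.9 in CD1. *Itga1* was at 679.5 against 390.0 CPM in NOD and 493 against 326 in CD1, a smaller difference with intervals above 0. *Tnfsf10*, which encodes the death ligand TRAIL, was at 314 against 150 CPM in NOD and 353 against 268 in CD1. The other residency genes past the fold in both libraries were *Tmem176a*, *Tmem176b* and *Socs2*, the last a brake on cytokine signalling. The higher levels of *Cxcr6*, *Cd200r1*, *Tmem176a*, *Tmem176b* and *Socs2* were also found in the CD3-low cells, at log2 ratios between 1.45 and 2.63.

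The 12 genes highest in *Xcl1* cells over NK cells, by the interval bound nearest 0, were *Cd3e*, *Gzmc*, *Cd200r1*, *St6galnac3*, *Gm32721*, *Trac*, *Adam19*, *Trgv2*, *Cd200r4*, *Ccdc80*, *Cxcr6* and *Gm53958*. Of these, *Cd3e*, *Trac* and *Trgv2* are T cell receptor genes. In the CD3-low cells *Trac* and *Trgv2* were not higher than in NK cells in either library. *Gzmc* was higher in the CD3-low cells of CD1 (log2 ratio 2.53) but not of NOD (-1.56). *St6galnac3* was at 794 against 242 CPM in NOD and 1316 against 405 in CD1. *Adam19*, a membrane metalloprotease gene, was at 281 against 66.5 CPM in NOD and 172 against 49.0 in CD1. T cells held *Adam19* at 361 CPM in NOD and 562 in CD1. *Cd200r4*, an activating relative of *Cd200r1*, was at 63.0 against 17.3 CPM in NOD and 68.4 against 13.8 in CD1. *Ccdc80* was at 85.7 against 6.98 CPM in NOD and 94.2 against 25.5 in CD1. For *St6galnac3*, *Adam19*, *Cd200r4* and *Ccdc80* the difference held in the CD3-low cells of both libraries.

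The 12 lowest were *Klra4*, *Phactr3*, *Ror1*, *Ube2c*, *Klra8*, *Itga2*, *Myb*, *Klra3*, *Klra9*, *Dgkh*, *Gm36803* and *Sh2d1a*. *Klra4*, which encodes the Ly49D receptor, was at 291 CPM in *Xcl1* cells against 1989 in NK cells of NOD and at 173 against 1117 in CD1. *Itga2*, which encodes CD49b, the usual surface marker of circulating NK cells, was at 46.3 against 386 CPM in NOD and 37.1 against 219 in CD1. *Sh2d1a*, the adaptor SAP, was at 58.9 against 221 CPM in NOD and 32.4 against 148 in CD1. Of 22 Ly49 and NKG2 genes, 10 were past the fold downward in both libraries and only *Klra5* upward. Of 13 proliferation genes, 4 were past the fold downward and none upward, with *Mki67* at 12.6 against 39.2 CPM in NOD and 6.91 against 40 in CD1.

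**Figure D3:**
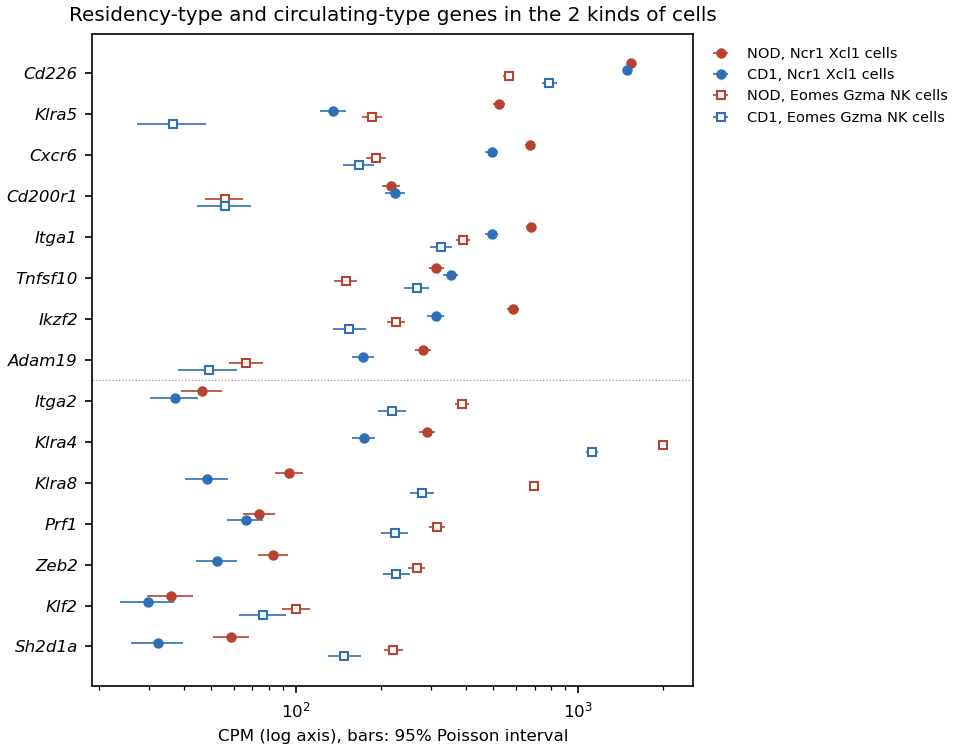
CPM on a log axis of 15 genes, chosen after their values were seen, in *Xcl1* cells (filled circles) and *Eomes* *Gzma* NK cells (open squares) of NOD (red) and CD1 (blue), with 95% Poisson intervals as bars. Above the dotted line each filled circle lies to the right of the open square of its strain, as for *Cxcr6* (675 against 191 CPM in NOD), and below it to the left, as for *Klra4* (291 against 1989 CPM in NOD).

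Granule genes differed one by one. Of 15 cytotoxic granule genes, 1 (*Gzmc*) was past the fold upward in both libraries and 1 (*Prf1*) downward. The shares over all genes were 1.26% and 0.974%. *Prf1*, which encodes perforin, was at 73.8 CPM in *Xcl1* cells against 315 in NK cells of NOD and at 66.2 against 223 in CD1. *Nkg7*, a granule membrane gene, was at 892 against 1199 CPM in NOD and 878 against 1107 in CD1. *Fasl*, a death ligand gene, was at 93.3 against 91.8 CPM in NOD and 111 against 101 in CD1, with intervals that held 0. Among 30 transcription factors tested, *Ikzf2* (Helios) was past the fold upward, at 587 against 226 CPM in NOD and 312 against 155 in CD1, and *Zeb2* and *Klf2*, factors of mature and recirculating lymphocytes, were past it downward. *Tbx21*, which encodes T-bet, was at 289 against 267 CPM in NOD and 302 against 203 in CD1. Of the inhibitory receptors, *Lag3* was at 20.2 against 5.98 CPM in NOD and 11.6 against 3.45 in CD1.

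The strains were compared within the *Xcl1* cells. Over 11320 genes with at least 20 UMIs, 643 (5.68%) were at a log2 ratio of NOD over CD1 of at least 1 and 532 (4.70%) at -1 or lower. The interval lay above 0 for 1826 genes (16.1%) and below 0 for 1348 (11.9%). With the rule applied to cells thinned to 2000 UMIs, 352 genes were past the fold upward and 565 downward, so the larger side turned. The 2 strains differed in the makeup of the cells, since 79.9% of the NOD but 30.5% of the CD1 cells bore CD3. The strains were therefore also compared within the CD3-low cells, and these values are given for some genes and lists. Values without them are over all *Xcl1* cells and hold this difference in makeup.

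Interferon response genes were higher in NOD as a group. Of 42 tested, 22 were past the fold upward and none downward. The interval lay above 0 for 37 and below 0 for none. Their median log2 ratio was 1.04, against 0.04 over all genes. It was 1.00 in the CD3-low cells, where 27 intervals lay above 0, and 1.28 in the CD3-bearing cells, where 34 did. Over all genes, 1323 intervals lay above 0 and 802 below in the CD3-low cells, and 1284 and 1030 in the CD3-bearing cells. The interferon genes had a median of 0.36 in the *Eomes* *Gzma* NK cells, 0.57 in T cells and 0.98 in endothelial cells of the same libraries. No difference between these cell types was tested. Macrophage and dendritic markers were also higher in the NOD *Xcl1* cells, with a median log2 ratio of 2.96, and of 4.05 in the CD3-low cells. Inside the main cluster the interferon genes summed to 3667 CPM in NOD and 2355 in CD1, and these markers to 150.3 and 241. In empty droplets the interferon genes summed to 5060 and 2632 CPM. The part of this RNA in the interferon values was not tested.

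*Ifi27l2a*, an interferon-induced mitochondrial gene, was at 220.3 CPM in NOD against 8.36 in CD1, a log2 ratio of 4.72 (4.12 to 5.39). *Rsad2*, which encodes the antiviral enzyme viperin, was at 16.1 CPM in NOD against 1.82 in CD1 (log2 ratio 3.14, 1.83 to 4.83). *Mx1*, an antiviral GTPase gene, was at 36.6 CPM in NOD and 4.73 in CD1, and *Ifit1*, which encodes a binder of foreign RNA caps, at 69.0 and 10.9. Its neighbour *Ifit3* was at 34.0 and 7.64 CPM. *Nlrc5*, the transactivator of MHC class I genes, was at 267 and 110 CPM (log2 ratio 1.28, 1.09 to 1.47). At the other end *Gbp4*, *Gbp7*, *Psmb9*, *Isg20* and *Xaf1* had log2 ratios between -0.22 and 0.01 with intervals that held 0.

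**Figure D4:**
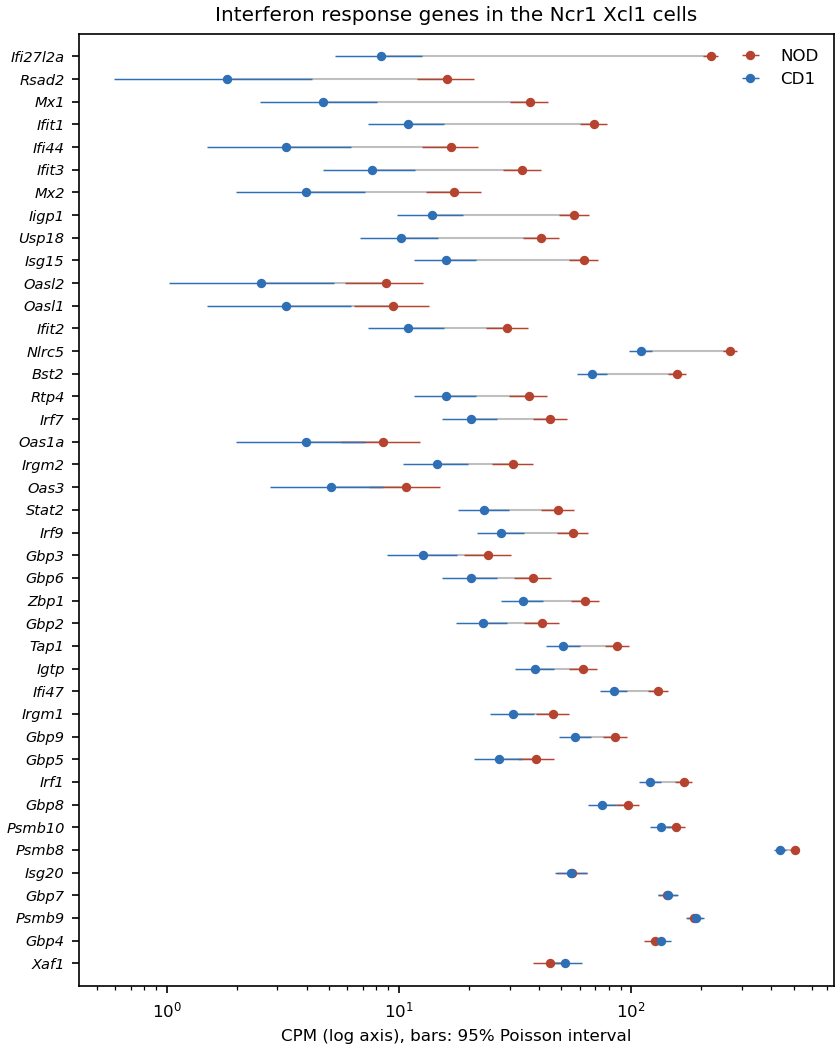
CPM on a log axis of 41 of the interferon response genes with at least 20 UMIs in *Xcl1* cells of NOD (red) and CD1 (blue), with 95% Poisson intervals as bars, ordered by the log2 ratio. *Ifi27l2a* at the top runs from 8.36 CPM in CD1 to 220.3 in NOD, and the 5 genes at the foot, *Isg20* to *Xaf1*, overlap between the strains.

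Interferon acts on many of these genes through a promoter element. Its core was searched as 2 copies of GAAA with any 2 bases between them, or 2 of TTTC for the other strand, in RefSeq promoters of GRCm38.p6 (250 bases before to 50 after the start, from the C57BL/6J reference and not from NOD or CD1). Of the 29 tested interferon genes with a promoter in the table, 15 (51.7%) held it, against 4.01% of 8755 promoters of all genes tested and 3.99% of 27025 promoters in the table. The promoters of 3 genes with large differences are shown, 5′ to 3′ on the strand of the gene, with the matches in capitals. *Ifit1* lies at chr19:34640639-34640938 on the plus strand, *Ifit3* at chr19:34583279-34583578 on the plus strand and *Rsad2* at chr12:26456403-26456702 on the minus strand.
Ifit1: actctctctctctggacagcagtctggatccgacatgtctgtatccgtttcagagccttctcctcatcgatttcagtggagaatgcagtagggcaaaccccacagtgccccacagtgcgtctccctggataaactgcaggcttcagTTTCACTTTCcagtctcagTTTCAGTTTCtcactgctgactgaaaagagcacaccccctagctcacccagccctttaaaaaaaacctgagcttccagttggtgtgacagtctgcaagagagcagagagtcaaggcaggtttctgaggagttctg
Ifit3: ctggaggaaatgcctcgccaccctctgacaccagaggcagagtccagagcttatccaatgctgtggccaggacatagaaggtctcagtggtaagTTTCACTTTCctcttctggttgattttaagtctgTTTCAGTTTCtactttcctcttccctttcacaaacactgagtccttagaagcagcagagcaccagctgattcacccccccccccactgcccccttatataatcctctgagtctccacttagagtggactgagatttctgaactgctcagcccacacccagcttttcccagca
Rsad2: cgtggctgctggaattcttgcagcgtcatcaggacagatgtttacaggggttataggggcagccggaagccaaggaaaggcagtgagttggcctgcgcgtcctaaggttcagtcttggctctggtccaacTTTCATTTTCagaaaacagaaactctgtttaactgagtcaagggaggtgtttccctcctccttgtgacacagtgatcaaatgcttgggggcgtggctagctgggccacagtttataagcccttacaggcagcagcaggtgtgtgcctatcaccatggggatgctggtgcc
*Ifit1* and *Ifit3* held 2 matches each and *Rsad2* held 1. The 15 genes with a match had a median log2 ratio of NOD over CD1 of 1.07 and the 14 without 0.71. *Ifi44*, at a log2 ratio of 2.35, had no match in this window. A match describes the letters and was not tested as a binding site.

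Receptor genes of the NK gene complex went both ways between the strains. Of 23 Ly49 and NKG2 genes tested, 6 were past the fold upward in NOD and 3 downward, against 5.68% and 4.70% of all genes. The list had a median log2 ratio of 0.68, and of 0.08 in the CD3-low cells. *Klra1*, which encodes Ly49A, was at 565 CPM in NOD and 87.6 in CD1. *Klra6* was at 109 and 13.1 CPM, *Klra13-ps* at 242 and 19.3, and *Klra5* at 522 and 135 (log2 ratio 1.95, 1.78 to 2.11). *Klrc1*, which encodes the inhibitory receptor NKG2A, was lower, at 101 CPM in NOD and 285 in CD1 (-1.49, -1.68 to -1.30). *Klrb1b* was at 202 and 436 CPM, but at 574 and 542 in the CD3-low cells, where its interval held 0. *Tyrobp*, which encodes DAP12, the adaptor of activating Ly49 receptors, was at 270 CPM in NOD and 637 in CD1. The Ly49 and *Klrb1* genes are close copies whose number and sequence differ between mouse strains, reads can be split between copies, and the part of strain sequence in these values was not tested. In the *Eomes* *Gzma* NK cells *Klra1*, *Klra5*, *Klra6* and *Klra13-ps* were also higher and *Klrc1* also lower in NOD.

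**Figure D5:**
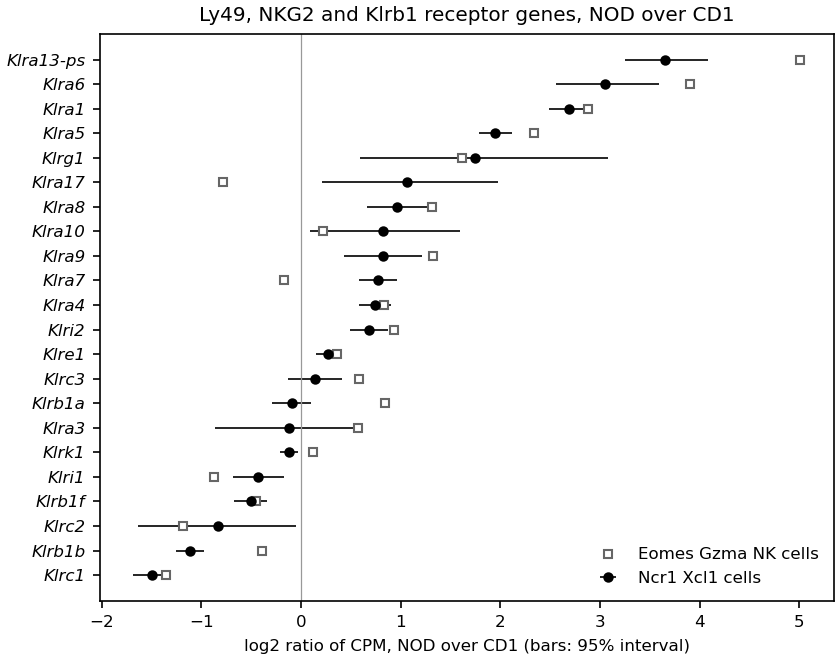
Log2 ratio of CPM, NOD over CD1, of 22 Ly49, NKG2 and *Klrb1* genes with UMIs in both libraries, in *Xcl1* cells (filled circles, bars 95% intervals) and *Eomes* *Gzma* NK cells (open squares). *Klra13-ps*, *Klra6*, *Klra1* and *Klra5* lie furthest to the right in both kinds of cells, and *Klrc1* (-1.49 in *Xcl1* cells) lies furthest to the left of those plotted. *Klrb1c*, a gene of the rule, is left out. A tested gene of the list with no UMI in the NOD *Xcl1* cells is also left out, and it counts among those past the fold downward.

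Among 18 cytokine and chemokine genes, 4 (*Ccl3*, *Ccl4*, *Csf1* and *Cxcl10*) were past the fold upward in NOD and 4 (*Ccl1*, *Lta*, *Il2* and *Tnfsf11*) downward. The shares over all genes were 5.68% and 4.70%. Macrophage and dendritic markers were also higher in the NOD cells, summing to 1040 against 225 CPM, and their part was not tested. *Ccl3*, a macrophage-attracting chemokine, was at 76.9 CPM in NOD against 16.7 in CD1, a log2 ratio of 2.20 (1.74 to 2.69) that was 1.78 in the CD3-low cells. *Ccl4*, its close relative, was at 271 and 128 CPM. *Ccl5*, a chemokine of effector lymphocytes, was at 2631 CPM in NOD against 1386 in CD1 (log2 ratio 0.93, 0.87 to 0.98), but at 1482 and 1254 in the CD3-low cells (0.24, 0.13 to 0.36). *Ifng*, which encodes interferon gamma, was at 109.7 CPM in NOD against 57.1 in CD1 (0.94, 0.67 to 1.22) and at 100.3 and 59.8 in the CD3-low cells (0.75, 0.26 to 1.22). *Tnf* was at 90.1 and 82.2 CPM, with an interval that held 0.

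The residency list did not move one way between the strains. Of 29 genes, 4 (*Itgae*, *Kit*, *P2rx7* and *Gpr55*) were past the fold upward and 5 (*Tmem176a*, *Tmem176b*, *Gpr183*, *Socs2* and *Hic1*) downward, with a median of -0.09. The shares over all genes were 5.68% and 4.70%. *Itgae* was at 165 CPM in NOD and 76.7 in CD1, but at 12.1 and 44.5 in the CD3-low cells, where the direction turned (log2 ratio -1.88, -3.24 to -0.77). *Tmem176b* was at 91.4 CPM in NOD and 267 in CD1, and at 179.8 and 291 in the CD3-low cells. *Gpr183*, a receptor for oxysterols that guides lymphocytes, was at 41.9 and 146 CPM, and *Socs2* at 35.6 and 125. Both stayed lower in the CD3-low cells, with log2 ratios of -1.03 and -1.67. *Cxcr6* was at 675 and 493 CPM and *Itga1* at 679.5 and 493. *Zbtb16* was at 74.7 CPM in NOD against 27.3 in CD1 (log2 ratio 1.45, 1.07 to 1.85), but at 17.3 and 21.4 in the CD3-low cells, where the interval held 0. Of the inhibitory receptors, *Pdcd1*, which encodes PD-1, was at 21.1 CPM in NOD and 2.18 in CD1.

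The 12 genes highest in NOD were *Col3a1*, *Klrh1*, *Trim30d*, *Lama2*, *E330020D12Rik*, *St6galnac2*, *Cxcl9*, *BC018473*, *Apod*, *Plac8*, *B3galt1* and *Gvin3*. Some of them were spread over many cells. *Gvin3*, a very large interferon-inducible GTPase gene, was at 545 CPM in 287 NOD cells and at 20.7 in 35 CD1 cells. *St6galnac2*, a sialyltransferase gene, was found in 190 NOD and 7 CD1 cells, and *E330020D12Rik* in 167 and 6. *Trim30d*, of the antiviral TRIM family, was found in 85 NOD cells at 42.9 CPM and in no CD1 cell, at least 39.3-fold higher. *Klrh1*, an NK receptor gene, was found in 36 NOD cells and no CD1 cell, at least 77.1-fold higher, and none of those 36 was CD3-low. *Gvin3*, *St6galnac2*, *E330020D12Rik*, *Trim30d* and *Klrh1* were also higher in the *Eomes* *Gzma* NK cells of NOD.

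Others rested on single cells. Of the *Col3a1* UMIs 99.3% lay in 1 NOD cell, the one that fell into the cluster led by *Dcn*, and the same cell held 97.0% of those of *Lama2* and of *Apod*. Without its top cell *Lama2* had a log2 ratio of at least 0.21, a bound from a floor of 3 counts since no CD1 cell held it. Of the *Cxcl9* UMIs 89.2% lay in 1 cell of the NOD cells in the cluster led by *Lyz2*. *B3galt1* was found in few cells, 7 in NOD and 1 in CD1, and of its 133 NOD UMIs 92 lay in the Lyz2-led cluster, 38 in the cell of the Dcn-led cluster and 3 in the main cluster. Of 326 *Plac8* UMIs in NOD, 164 lay in the main cluster and 115 in the cluster led by *Lyz2*.

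The 12 genes lowest in NOD were *Mmp16*, *Fam184b*, *Styk1*, *Ifi202b*, *Slc15a2*, *Ly6c2*, *Ccl1*, *Abcb1b*, *Slc24a3*, *Dnajc6*, *Elavl4* and *Mmp9*. *Mmp16*, a membrane-bound matrix metalloprotease gene, had no UMI in the NOD cells and 629.8 CPM over 181 of the 236 CD1 cells, at least 666-fold lower in NOD. The floor behind such bounds is 3 counts over the *Xcl1* cells of a library. *Styk1*, a kinase-like receptor gene of NK cells, was at 2.84 CPM in NOD and 202 in CD1. *Ifi202b*, of the interferon-inducible p200 family, was at 6.93 and 318 CPM, in 10 and 199 cells. *Slc24a3*, a sodium-calcium exchanger gene, was at 14.2 and 249.8 CPM and *Fam184b* at 0.63 and 102. *Mmp16*, *Ifi202b*, *Slc24a3* and *Fam184b* were also lower in the *Eomes* *Gzma* NK cells of NOD, *Mmp16* at 0 against 433 CPM. *Ly6c2*, an antigen of monocytes and some lymphocytes, had a log2 ratio of -2.93 (-3.82 to -2.16) in the CD3-low and -7.14 (-9.43 to -5.56) in the CD3-bearing cells. Of its 17 NOD UMIs, 14 lay in the 8 cells of the cluster led by *Lyz2* and 1 in the main cluster. Of the *Ccl1* UMIs, 83.2% lay in 1 CD1 cell. The effect of strain sequence on the counting of these genes was not tested.

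RNA of other cell types was present in the *Xcl1* cells at levels that differed between the strains. The 18 macrophage and dendritic markers summed to 1040 CPM in NOD, with *Cd74* highest at 246, and 225 in CD1, with *Ctss* highest. *Mrc1*, *Flt3*, *Xcr1* and *Clec9a* were at 0 in CD1. In NOD 88.1% of these UMIs lay in the 37 cells outside the main cluster, and inside it the sum was 150.3 CPM in NOD and 241 in CD1. In the CD3-low cells the sum was 2840 CPM in NOD and 253 in CD1, so the CD3-low comparison of the strains holds more of this RNA on the NOD side. The 12 endothelial markers summed to 191 CPM in NOD and 588 in CD1, with *Pecam1* and *Flt1* highest and *Cldn5* at 0 in CD1. The 15 B and plasma cell markers summed to 362 and 172 CPM, with *Igha* highest in NOD at 150.0 CPM and *Ebf1* in CD1, and with *Cd22*, *Pax5*, *Fcmr*, *Iglc1* and *Iglc3* at 0 in CD1. In empty droplets the B and plasma cell markers summed to 12387 and 5837 CPM. The 17 acinar and duct markers summed to 34.0 and 61.4 CPM, with *Aqp5* and *Dcpp3* at 0 in both strains. The 12 markers of type 3 innate lymphoid cells summed to 288 CPM in NOD and 587 in CD1, with *Tmem176b* highest in both and *Il22*, *Il17a* and *Il17f* at 0 in both. Of 4 tested, 2 (*Tmem176a* and *Tmem176b*, also in the residency list) were past the fold above the NK cells in both libraries. The 12 markers of type 2 innate lymphoid cells summed to 126 and 165 CPM, with *Gata3* highest in both and *Il13* and *Rxrg* at 0 in both. Their part in the results above was not tested.

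The remaining lists are given by their counts. Over all 11320 genes tested, 5.68% were past the fold upward in NOD and 4.70% downward. A count near these shares is not read as a result about its list. Of 12 T cell genes 6 were past the fold upward in NOD and none downward, with sums of 2606 CPM in NOD and 941 in CD1 over all *Xcl1* cells but 398 and 430 in the CD3-low cells, a fall that the limit on CD3 in part fixes. Of 24 genes of circulating NK cells 3 were upward and 1 downward, with 13 intervals above 0 and 2 below. Of 5 type 3 markers 1 (*Il23r*) was upward and 2 (*Tmem176a* and *Tmem176b*) downward, and of 3 type 2 markers 1 (*Klrg1*) and 1 (*Il1rl1*). None of 27 cytokine receptor and signalling genes was past the fold, nor was any of 15 cytotoxic granule genes. Of 22 activating receptors and adaptors 1 (*Cd247*) was past it upward and 1 (*Tyrobp*) downward, and of 18 genes of the TGF-beta response 2 (*Itgae* and *Rgs16*) were upward and none downward. Of 22 dissociation and immediate early genes 2 (*Dusp1* and *Zfp36*) were upward and none downward, with a median of 0.29. Of 9 NK lineage markers 1 (*Klra5*) was upward and 1 (*Tyrobp*) downward, of 11 inhibitory receptors 2 (*Pdcd1* and *Ctla4*) and 1 (*Klrc1*), of 18 chemokine and migration receptors 1 (*Xcr1*, also among the dendritic markers) and 2 (*Ccr7* and *Gpr183*), and of 10 proliferation genes none and 2 (*Stmn1* and *Rrm2*). Of 32 transcription factors 4 (*Zbtb16*, *Irf8*, *Irf4* and *Nr4a2*) were upward and 1 (*Hic1*) downward. *Irf8*, a factor of myeloid cells and NK cells, was at 154 CPM in NOD and 60.7 in CD1, and the macrophage and dendritic markers moved the same way. *Id2*, which all innate lymphoid cells need, was at 849 and 899 CPM, and *Tox*, a factor of their precursors, at 1086 and 1070.1.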

How the data were processed

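Per the labels and methods, cells of NOD and CD1 glands were dissociated, depleted of epithelial, red blood and dead cells and run on the 10x Genomics platform. The authors deposited raw UMI counts per gene and barcode. The submitters' processing notes name Cell Ranger 8.0.0, GRCm39, R 4.3.1 and Seurat 5.0.1. The deposited counts were used as they are, without the authors' later steps. Enzyme mixes differ between methods and labels.

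The quality limits were a minimum of 500 UMIs and 300 genes per barcode and a mitochondrial share of 10% or less. No doublets were removed, and the rule excludes mixtures only in part. An alternative left out the highest Scrublet scores (scanpy 1.11.5), 193 NOD barcodes (3.93%) with 9 *Xcl1* cells and 258 CD1 barcodes (4.55%) with 10. Summed UMIs per kind of cell and library were scaled to CPM. Intervals at 95% are Poisson (exact) for CPM, conditional binomial for log2 ratios and Clopper-Pearson (exact) for shares. A gene needed 20 UMIs over the groups compared. "Past the fold" is a log2 ratio of at least 1 or at most -1. T cells needed 2 CD3 UMIs and 1 of *Cd4* or *Cd8b1*, and endothelial cells 3 UMIs of *Pecam1*, *Kdr* and *Cdh5* with no *Ptprc* or CD3. Each library was clustered alone (2000 variable genes, 30 components, 15 neighbours, Leiden resolution 1).

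Some genes of the lists are counted but not reported here by name. The genes named are the rule and label genes, those of 22 lists, and the 12 highest and lowest of each comparison. The members of the rule and the lists were chosen with earlier results of these data known, and 4 alternatives were added after seeing the data. The interval code was tested on simulated data. Statistics used Python 3.11.15, numpy 2.4.6, scipy 1.17.1 and pandas 2.3.3, and figures matplotlib 3.10.9.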

Additional observations from a re-analysis of the deposited data

Results flagged for a closer look

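For 17 listed or named genes the *Xcl1* cells lay above the *Eomes* *Gzma* NK cells in one library and below them in the other, with both intervals on one side of 0. The difference between the strains was not tested for any of them. Each pair gives the log2 ratio of *Xcl1* cells over NK cells in NOD and then in CD1. Those higher in the *Xcl1* cells of NOD and lower in those of CD1 were *Cxcl10* (1.88 and -5.06), *Plac8* (2.72 and -2.15), *Mx1* (0.80 and -1.81), *Kit* (1.27 and -1.28), *Il1r1* (1.18 and -1.23), *Ramp2* (4.32 and -1.55), *Emcn* (1.73 and -0.50), *Flt1* (1.11 and -0.30), *Igha* (1.27 and -0.55), *Trdc* (0.67 and -0.50), *Id3* (0.62 and -0.84), *Jun* (0.30 and -0.33) and *Junb* (0.21 and -0.18). Those lower in NOD and higher in CD1 were *Il18r1* (-0.37 and 0.39), *Cd28* (-0.70 and 0.63), *Klrb1a* (-0.61 and 0.33) and *Ccr7* (-2.66 and 1.95). Of 326 *Plac8* UMIs in NOD *Xcl1* cells, 115 lay in the cells of the Lyz2-led cluster. *Emcn*, *Flt1* and *Ramp2* are endothelial markers and *Igha* is a plasma cell marker that was abundant in empty droplets.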

How the results depend on the processing

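No paired analysis was possible because each strain has 1 library, and for the same reason no replicate could be left out. The share of *Xcl1* cells was 6.98% in NOD and 4.80% in CD1 with a mitochondrial limit of 5%, 1.26% and 2.89% without CD3-bearing cells, so that the order of the strains turned, 4.60% and 3.23% with no UMI of *Gzma* or *Eomes*, and 4.91% and 4.46% with the rule applied to cells thinned to 2000 UMIs. Of the counts, 643 genes higher in NOD became 352 under that thinning and 419 in the main cluster alone, and 128 genes higher over NK cells became 197 without the top cell of each gene. With a minimum of 50 UMIs the counts were 302 higher and 253 lower in NOD and 69 higher and 51 lower over NK cells, and with a minimum of 1 they were 1753, 1474, 277 and 277, since other numbers of genes were tested. At a clustering resolution of 0.5, 90.3% of the CD1 cells shared a cluster that also held 103 of the 107 NK cells. Thinned to 500 UMIs, *Cd3g* was found in 31.5% of NOD and 10.6% of CD1 cells. Log2 ratios over NK cells were taken from the library nearer 0. Without CD3-bearing cells they fell below 0 for *Cd3e* (-2.29, by construction) and *Gzmc* (-1.56, NOD). They also fell below 0 for *Trac* (-0.28, NOD) and *Trgv2* (-0.29, CD1). The intervals of these *Gzmc*, *Trac* and *Trgv2* values held 0, and *Gzmc* stayed higher in CD1 (2.53, 1.88 to 3.24). Under the thinned rule *Trgv2* was at -0.75. Between the strains *Ccl1* turned to 0.39 in the main cluster. The median of the B and plasma cell markers turned to -4.02 under the thinned rule and -0.62 with free RNA taken off, and that of the macrophage and dendritic markers to -1.50 under the thinned rule and -0.73 in the main cluster. The cause was not tested. The median of the interferon response genes kept its sign in every alternative and fell below 1 in some, the lowest being 0.86. Median-of-ratios scaling shifted all genes between the strains by 0.03. The main cluster, the top cell and 2 other alternatives were chosen after seeing the data. Single genes with few UMIs, and the 62 CD3-low NOD cells, are limited by depth.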
